A study of Mus musculus with 9 samples.

Results

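The 9 genes described here, Dcn, Lum, Ogn, Dpt, Pdgfra, Igf2, Slc6a13, Crabp2 and Aldh1a2, are commonly used to recognise fibroblasts of connective tissue and of the meninges, and they are taken here by name. Each was taken from the mRNA table of the trigeminal ganglion (TG), the ganglion that holds the cell bodies of the sensory neurons of the face and jaw, by adding up the FPKM (read fragments scaled to transcript length and to the depth of the library) of all its transcripts. They are 9 of the 21835 genes of that table. All 9 averaged 0.1 FPKM or more and were tested among 16110 gene sums that did so.

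The mice were male wild-type C57BL/6 animals, 8 weeks old by the study's methods, and received a unilateral injection of 10 µl into the temporomandibular joint (TMJ). The saline group (replicates 1 to 3, labelled day 3) received saline, and the CFA groups received complete Freund's adjuvant at 5 mg/ml, an emulsion with killed mycobacteria that inflames the joint, with TG taken on day 3 (CFA3D, replicates 1 to 3) or day 6 (CFA6D, replicates 4 to 6). Each of the 9 libraries pooled TG tissue of 3 mice, so n = 3 pools per group and p-values measure the spread between pools. There was no saline group on day 6, so the day and the treatment cannot be told apart on CFA6D.

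The ganglion is wrapped in connective tissue that continues the meninges, and the fibroblasts in it make the collagen and proteoglycans that hold the neurons, glia and vessels. Decorin, lumican and osteoglycin are small leucine-rich proteoglycans that bind collagen and set the thickness of its fibres, and Pdgfra is the receptor through which fibroblasts receive platelet-derived growth factor. Meningeal fibroblasts also make retinoic acid from retinaldehyde through Aldh1a2, carry it inside the cell on Crabp2, secrete Igf2 and take up GABA and taurine through Slc6a13.

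The genes lie at separate loci on mouse build GRCm38, except for Dcn and Lum. Dcn (chr10:97479609-97518143, plus strand) and Lum (chr10:97565128-97572703, plus strand) stand in a row with Kera and Epyc, and Ogn (chr13:49608046-49624501, plus strand) closes a row of Ecm2, Aspn, Omd and Ogn. Ogn also lies inside Cenpp, which runs on the opposite strand and had a mean of 0.653 FPKM. The bases upstream of the annotated start were available from RefSeq (GRCm38.p6) for 6 of the 9 genes. Dcn, Lum and Crabp2 were not among them. The windows of 250 bases before the start are shown for 3 genes. These are Ogn, a proteoglycan gene whose level followed that of Dcn, and Aldh1a2, which varied most between libraries. The other is Pdgfra, of whose transcripts starting close to this window 1 was called. CG dinucleotides are in capitals. Ogn (chr13:49607765-49608014) lies on the plus strand, as do Aldh1a2 (chr9:71215539-71215788) and Pdgfra (chr5:75152001-75152250).
Ogn: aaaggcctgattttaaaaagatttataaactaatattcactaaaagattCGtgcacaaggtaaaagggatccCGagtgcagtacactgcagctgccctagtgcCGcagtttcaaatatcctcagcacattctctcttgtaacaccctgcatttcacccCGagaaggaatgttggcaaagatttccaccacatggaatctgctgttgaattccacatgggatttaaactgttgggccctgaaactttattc
Aldh1a2: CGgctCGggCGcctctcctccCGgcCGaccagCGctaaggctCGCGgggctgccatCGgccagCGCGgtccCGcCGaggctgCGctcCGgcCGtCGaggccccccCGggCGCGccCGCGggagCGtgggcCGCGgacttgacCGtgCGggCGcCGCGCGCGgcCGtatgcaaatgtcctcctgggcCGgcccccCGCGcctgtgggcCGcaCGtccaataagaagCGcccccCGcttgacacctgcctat
Pdgfra: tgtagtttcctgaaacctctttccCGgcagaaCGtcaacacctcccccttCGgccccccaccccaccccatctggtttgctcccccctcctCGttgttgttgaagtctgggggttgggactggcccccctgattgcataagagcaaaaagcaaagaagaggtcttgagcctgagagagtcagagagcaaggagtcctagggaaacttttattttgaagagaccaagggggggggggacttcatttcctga

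The Aldh1a2 window held 40 CG dinucleotides and was 77.6% G or C. The Ogn window held 4 at 42% G or C, and the Pdgfra window 4 at 54.4%. Over all promoters of the table the medians were 6 CG dinucleotides and 52% G or C. The window of Igf2 held 22 at 68.8%, that of Slc6a13 held 9 at 60.8% and that of Dpt held 3 at 48.8%, so the 2 genes with the richest windows were Aldh1a2 and Igf2. On either strand, a TATA box (TATAAA) occurred in Ogn, where 2 overlapping matches lay 222 to 229 bases before the start, and in 12.97% of 27025 promoters. A CCAAT box (CCAAT) occurred 32 to 36 bases before the start of Aldh1a2 and in 34.5% of promoters. The GC box (GGGCGG) occurred in Igf2 and Slc6a13 and in 32.9% of promoters, and the E-box (CANNTG) in 5 of the 6 genes, all but Igf2, and in 66.0% of promoters. The letters TGANTCA (AP-1), AGGTCA (a retinoic acid receptor half-site), TGTTCT (a glucocorticoid receptor half-site) and TGTTTAC (forkhead) were in none of the 6 windows, against 6.87%, 13.8%, 16.2% and 3.09% of promoters. These matches describe letters and not sites of binding.

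Before the results, several libraries stood apart. From the steps in the FPKM values, 30.0 to 42.2 M read pairs stood behind the libraries. CFA6D replicate 6 lay at the end of the leading principal component (29.0% of the variance) and saline replicate 3 at the end of the next (18.4%). Saline replicate 3 carried pituitary RNA, with a summed 10611 FPKM over 5 pituitary markers, and CFA6D replicates 4 and 5 carried 1114 and 403 FPKM. Saline replicate 2 had the highest summed adipocyte and skeletal muscle markers, 112 and 136 FPKM, and CFA6D replicate 6 the highest osteoblast markers, 48.3 FPKM. Sensory neuron markers, which define the tissue, summed to 1613 to 2387 FPKM in the 9 libraries, and none of the 8 was at 0 in every library. In bulk RNA, fewer fibroblasts and less RNA per fibroblast cannot be told apart.

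In saline, CFA3D and CFA6D alike the 9 genes spanned a wide range of levels. FPKM is scaled to transcript length, so levels can be set side by side. Averaged over the 9 libraries, Dcn stood at 279 FPKM, above 99.6% of the tested gene sums, and Ogn at 63.5 FPKM. Igf2 (26.1 FPKM), Lum (21.3 FPKM), Slc6a13 (13.2 FPKM) and Pdgfra (11.2 FPKM) followed. The next were Aldh1a2 at 5.32 FPKM and Crabp2 at 4.18 FPKM, and Dpt was lowest at 0.634 FPKM, above 13.6% of the tested gene sums. Neighbours in this order overlapped in their ranges over the libraries, except for Dcn with Ogn and Crabp2 with Dpt. All 9 genes were above 0 in every library, and Dpt, at 0.318 to 1.33 FPKM, was the lowest of them.

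**Figure D1:**
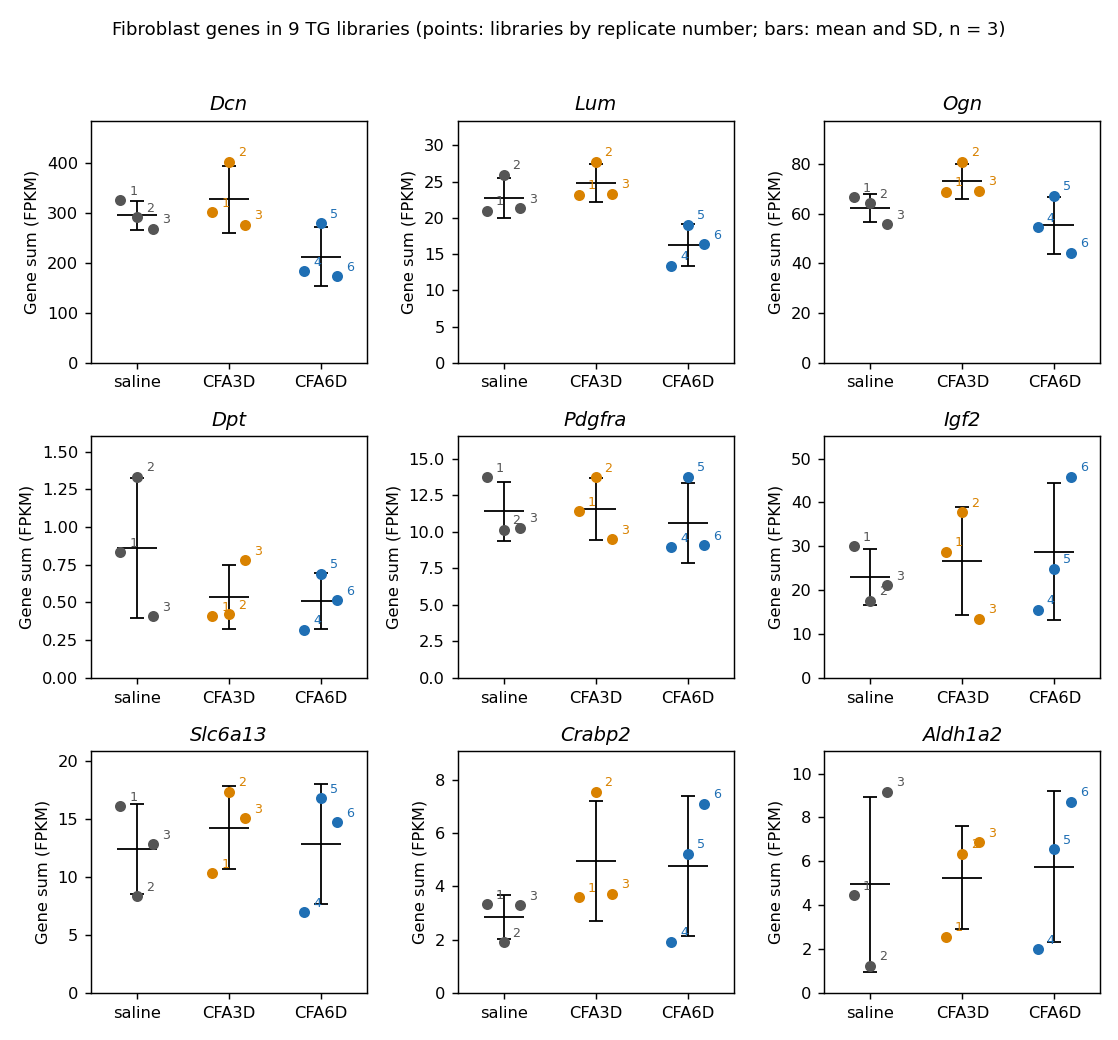
FPKM (linear axis from 0, 1 panel per gene) of the 9 genes in every library, with saline, CFA3D and CFA6D as separate groups of 3 points numbered by replicate and bars for the mean and SD of each group. Lum on CFA6D, at 13.4 to 19.1 FPKM, lies wholly below the saline libraries at 20.97 to 25.9 FPKM, and the points of Aldh1a2 range from 1.25 to 9.18 FPKM within saline alone.

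On CFA3D, none of the 9 genes was called changed from saline, where a call means an unadjusted p under 0.05 in a limma fit of log2(FPKM + 0.1) to all 9 libraries. Over all gene sums 4.45% were called in this comparison. The median log2 fold change of the 9 genes was 0.13 against 0.05 over all gene sums, and every adjusted p (Benjamini-Hochberg over all gene sums) was 0.997. The groups did not overlap in 2 of the 9 genes, Ogn and Crabp2, both higher on CFA3D, against 9.13% of all gene sums that did not overlap.

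On CFA6D, Dcn and Lum were lower than in saline and the other 7 genes were not called. These 2 of 9 compare with 11.1% of all gene sums called in either direction and 2.85% called lower. The median log2 fold change of the 9 genes was -0.12 against 0.03 over all gene sums. The groups did not overlap in 1 of the 9 genes, Lum, against 16.2% of all gene sums. Neither call survived adjustment, and no gene sum had a limma Benjamini-Hochberg adjusted p under 0.05 in any of the 3 comparisons. The counts at an unadjusted p under 0.05 were 717 on CFA3D, 1782 on CFA6D and 1193 between the CFA days, and the smallest adjusted p was 0.0732. An exact permutation test of 3 pools against 3 cannot go below p = 0.1.

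Between the CFA days, 3 of the 9 genes were lower on CFA6D than on CFA3D: Dcn, Lum and Ogn. In this comparison 7.41% of all gene sums were called in either direction and 4.34% were called lower on CFA6D. The groups did not overlap in Lum and Ogn, against 16.7% of all gene sums, and the median of the 9 genes was -0.16 against -0.02 over all gene sums. The CFA6D libraries entered both this comparison and that with saline, so the values are given side by side and not as independent results.

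**Figure D2:**
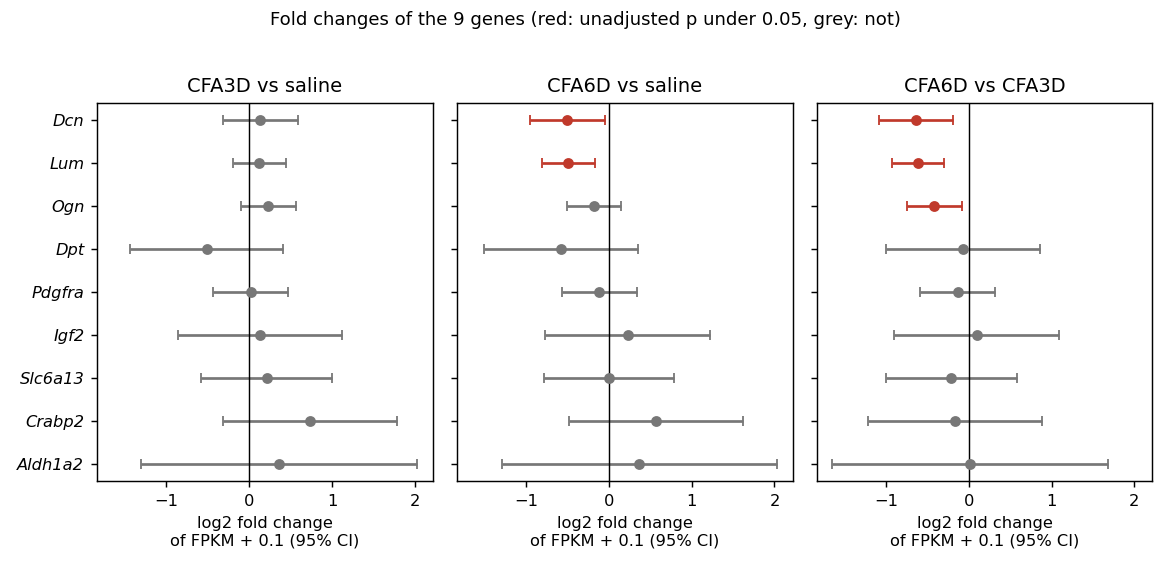
Log2 fold change of each gene on the log2(FPKM + 0.1) scale with its 95% confidence interval from limma, for CFA3D against saline, CFA6D against saline and CFA6D against CFA3D, in red where the gene was called. The intervals of Dcn and Lum lie below 0 in the comparisons of CFA6D with saline and with CFA3D, that of Ogn lies below 0 between the CFA days, and the intervals of Aldh1a2, Crabp2 and Igf2 are the widest.

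Dcn encodes decorin and had the highest level of the 9 genes. Its FPKM was 326, 292 and 269 in saline, 302, 404 and 277 on CFA3D, and 183, 281 and 174 on CFA6D. CFA6D replicates 4 and 6 were the lowest of all libraries, CFA6D replicate 5 lay inside the saline range, and CFA3D replicate 2 was the highest. Dcn averaged 296 ± 28.5 in saline, 328 ± 67.0 on CFA3D and 213 ± 58.9 on CFA6D (SD over 3 pools). On CFA6D its log2 fold change from saline was -0.50 (SE 0.20, limma adjusted p = 0.399), which corresponds to a mean 0.720 times that of saline. Between the CFA days it was -0.64 (SE 0.20, limma adjusted p = 0.614), and on CFA3D it was 0.13 with a 95% confidence interval of -0.32 to 0.58.

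The call of Dcn against saline rested on single libraries. On CFA6D it had a log2 fold change of -0.43 without saline replicate 1 (SE 0.23), and without saline replicate 2 it was -0.51 (SE 0.24). Without CFA6D replicate 4 it was -0.41 (SE 0.22), and without CFA6D replicate 6 it was -0.38 (SE 0.22). In these 4 fits the estimate stayed below 0 and the gene was no longer called. Between the CFA days the call held without any one of the 9 libraries, with log2 fold changes of -0.85 to -0.48.

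Lum encodes lumican, a keratan sulfate proteoglycan of collagen fibrils. Its FPKM was 20.97, 25.9 and 21.3 in saline, 23.2, 27.8 and 23.3 on CFA3D, and 13.4, 19.1 and 16.3 on CFA6D. Every CFA6D library was below every saline and every CFA3D library, whereas saline and CFA3D overlapped. Lum averaged 22.7 ± 2.76 in saline, 24.8 ± 2.60 on CFA3D and 16.3 ± 2.84 on CFA6D (SD over 3 pools). On the log2 scale the change was -0.49 against saline (SE 0.14, limma adjusted p = 0.240) and -0.61 against CFA3D (SE 0.14, limma adjusted p = 0.510). Lum stayed below an unadjusted p of 0.05 in both comparisons without any one of the 9 libraries, with log2 fold changes of -0.61 to -0.36 against saline.

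Ogn encodes osteoglycin, also named mimecan, a proteoglycan that binds collagen and is made by fibroblasts and bone cells. Its FPKM was 66.5, 64.1 and 55.8 in saline, 68.8, 80.9 and 69.1 on CFA3D, and 54.4, 67.2 and 44.3 on CFA6D. All CFA3D libraries were above all saline and all CFA6D libraries, and CFA6D spanned the saline range and went below it. Between the CFA days the log2 fold change was -0.42 (SE 0.15, limma adjusted p = 0.642). Against saline it was 0.23 on CFA3D (SE 0.15, adjusted p = 0.997) and -0.18 on CFA6D (SE 0.15, adjusted p = 0.693) in the same limma fit. Between the CFA days Ogn was no longer called without CFA3D replicate 2, at -0.34 (SE 0.16), or without CFA6D replicate 6, at -0.27 (SE 0.13). Without CFA6D replicate 5 it was called against saline, at -0.33 (SE 0.13).

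Dpt encodes dermatopontin, a small matrix protein that binds decorin and marks fibroblasts of the dermis and of vessel walls. Its FPKM was 0.833, 1.33 and 0.408 in saline, 0.408, 0.421 and 0.780 on CFA3D, and 0.318, 0.690 and 0.514 on CFA6D. Saline replicates 1 and 2 were the highest libraries, and saline replicate 3 was as low as CFA3D replicate 1, so the groups overlapped. The log2 fold changes from saline were -0.52 on CFA3D (SE 0.41, limma adjusted p = 0.997) and -0.58 on CFA6D (SE 0.41, adjusted p = 0.659). Without saline replicate 3 these were -0.91 and -0.98 (SE 0.37 each) and both were called, so that library decided whether Dpt was called.

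Pdgfra encodes the alpha receptor of platelet-derived growth factor, which marks fibroblasts of nerve and meninges as well as oligodendrocyte precursors. Its FPKM was 13.7, 10.1 and 10.3 in saline, 11.4, 13.7 and 9.48 on CFA3D, and 8.93, 13.8 and 9.07 on CFA6D. Each group held a library near 13.7 FPKM beside lower ones, and no group stood apart. Pdgfra varied least of the 9 genes over the libraries, by 1.54 times from lowest to highest. Its log2 fold change was 0.02 on CFA3D (95% confidence interval -0.44 to 0.47) and -0.12 on CFA6D (-0.57 to 0.33), and the sign on CFA3D turned under quantile and median-of-ratios scaling.

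Igf2 encodes insulin-like growth factor 2, a fetal growth factor that stays on in meninges and choroid plexus after birth. Its FPKM was 30.0, 17.6 and 21.2 in saline, 28.7, 37.8 and 13.5 on CFA3D, and 15.6, 24.9 and 45.9 on CFA6D. The highest library, CFA6D replicate 6, and the lowest, CFA3D replicate 3, were both CFA libraries, and the range within CFA6D alone was 2.95 times. The log2 fold change was 0.13 on CFA3D and 0.22 on CFA6D, with 95% confidence intervals of -0.86 to 1.12 and -0.77 to 1.22. H19, the imprinted noncoding RNA downstream of Igf2 on chromosome 7, is listed in the lncRNA table and had 9.60, 9.68 and 5.51 FPKM in saline, 11.4, 14.8 and 2.99 on CFA3D, and 5.07, 7.57 and 7.25 on CFA6D. As for Igf2, CFA3D replicate 2 was high and CFA3D replicate 3 low for H19, but CFA6D replicate 6 was not high for H19.

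Slc6a13 encodes the GABA and taurine transporter GAT2 of the leptomeninges. Its FPKM was 16.1, 8.35 and 12.8 in saline, 10.3, 17.3 and 15.1 on CFA3D, and 6.98, 16.8 and 14.7 on CFA6D. The group means differed little, at 12.4 ± 3.89, 14.2 ± 3.60 and 12.8 ± 5.18 (SD, n = 3), and each group held a library far below the others: saline replicate 2, CFA3D replicate 1 and CFA6D replicate 4. The log2 fold change was 0.21 on CFA3D (95% confidence interval -0.58 to 1.00) and 0.00044 on CFA6D (-0.79 to 0.79).

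Aldh1a2 encodes the retinaldehyde dehydrogenase that makes retinoic acid, and it had the widest range of the 9 genes. Its FPKM was 4.45, 1.25 and 9.18 in saline, 2.56, 6.34 and 6.88 on CFA3D, and 1.99, 6.55 and 8.73 on CFA6D. The lowest library of each group was again saline replicate 2, CFA3D replicate 1 and CFA6D replicate 4, and the groups overlapped from end to end. The highest library exceeded the lowest by 7.35 times, both of them saline. The log2 fold change was 0.36 on CFA3D and 0.37 on CFA6D, each with a standard error of 0.74, so changes as large as 2.02 on the log2 scale lay within the 95% confidence intervals.

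Crabp2 encodes the cellular retinoic acid binding protein that hands retinoic acid to its nuclear receptor. Its FPKM was 3.34, 1.91 and 3.29 in saline, 3.60, 7.55 and 3.72 on CFA3D, and 1.92, 5.22 and 7.11 on CFA6D. All CFA3D libraries were above all saline libraries, 2 of them by a small margin, and CFA6D replicate 4 was as low as saline replicate 2. On the log2 scale the change was 0.74 on CFA3D (SE 0.47, limma adjusted p = 0.997) and 0.57 on CFA6D (SE 0.47, adjusted p = 0.698). Without CFA6D replicate 4, Crabp2 was called on CFA3D, at 0.74 (SE 0.32), and on CFA6D, at 1.11 (SE 0.36).

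Each of the 9 genes varied more between replicate pools than the median gene sum of like level. The within-group SD of log2(FPKM + 0.1) was 1.12 for Aldh1a2, 0.70 for Crabp2, 0.67 for Igf2 and 0.53 for Slc6a13. These exceeded 99.2%, 96.4%, 99.2% and 98.0% of the gene sums of like level, whose median SD ran from 0.13 to 0.19. The SD was 0.28 for Dcn, 0.29 for Pdgfra, 0.20 for Ogn and 0.20 for Lum, above 89.4%, 90.9%, 85.6% and 78.9% of genes of like level. Dpt, at 0.57, exceeded 74.1% of them.

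Slc6a13, Crabp2 and Aldh1a2 shared the same lowest library in each of the 3 groups, saline replicate 2, CFA3D replicate 1 and CFA6D replicate 4, and this pattern was singled out after the values were seen. It occurred in 7.88% of all tested gene sums. By list, it occurred in 9 of 20 meningeal and arachnoid genes, 5 of 21 retinoid genes and 2 of 4 GABA, betaine and taurine transporters. It also occurred in 2 of 5 Schwann cell markers (Mbp and Mag), 1 of 4 satellite glia markers and 1 of 3 choroid plexus markers. Among fibroblast matrix genes it occurred in 1 of 23, and among the other small leucine-rich proteoglycans in 0 of 11. The remaining lists held 0 or 1 such gene each. The pattern was thus not particular to meningeal genes. Ptgds, the prostaglandin D synthase of arachnoid cells, showed it as well, with 757, 170.4 and 1244 FPKM in saline, 282, 1174 and 1022 on CFA3D, and 354, 1264 and 1662 on CFA6D. Slc22a8, an organic anion transporter of the arachnoid barrier, had 3.11, 1.00 and 4.56 FPKM in saline, 1.80, 4.78 and 3.62 on CFA3D, and 1.71, 4.95 and 7.12 on CFA6D. The summed meningeal and arachnoid list was 279 to 1435 FPKM in saline, 428 to 1397 on CFA3D and 447 to 1843 on CFA6D, so this sum, most of it Ptgds, differed within each group by several times and the groups overlapped. Its part in the values of Slc6a13, Crabp2 and Aldh1a2 was not tested.

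**Figure D3:**
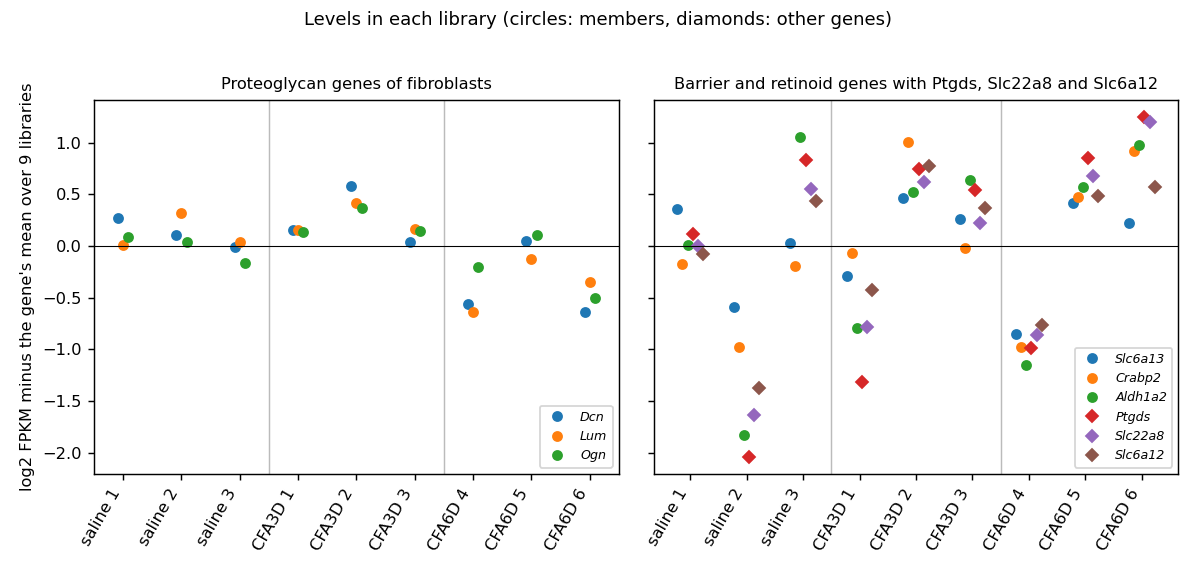
Log2 FPKM of each gene minus its own mean over the 9 libraries, one column per library. In the left panel Dcn, Lum and Ogn are lowest in CFA6D replicates 4 and 6. The right panel shows Slc6a13, Crabp2 and Aldh1a2 (circles) with Ptgds, Slc22a8 and Slc6a12 (diamonds). Within each group these are lowest in saline replicate 2, CFA3D replicate 1 and CFA6D replicate 4. Crabp2 in CFA3D replicate 1, at 3.60 FPKM, is close to CFA3D replicate 3, at 3.72 FPKM, and lies near its own mean.

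Across the 9 libraries the genes fell into pairs that moved together to different degrees. Of 36 pairs, 30 had a Pearson r above 0, with a median of 0.31 and a range of -0.27 to 0.91, on log2(FPKM + 0.1). Dcn and Ogn had an r of 0.911 (exact permutation p = 0.000333, adjusted p = 0.0120 over the 36 pairs) and a Spearman rho of 0.75 (exact permutation p = 0.0255, adjusted p = 0.332). The r was 0.80 without the 2 libraries farthest from the median of Dcn and 0.90 within groups. This was the pair with an adjusted Pearson p under 0.05, and none of the Spearman values had one.

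Dcn and Lum, neighbours on chromosome 10, had an r of 0.875 (exact permutation p = 0.00344, adjusted p = 0.0619) and a rho of 0.667 (exact permutation p = 0.0589, adjusted p = 0.353). Within groups the r was 0.662, and without the 2 farthest libraries it was 0.604. Slc6a13 had an r of 0.823 with Crabp2 (exact permutation p = 0.00698, adjusted p = 0.0699) and of 0.823 with Aldh1a2 (exact permutation p = 0.00917, adjusted p = 0.0699). The rho values were 0.783 (exact permutation p = 0.0172, adjusted p = 0.332) and 0.45 (exact permutation p = 0.230, adjusted p = 0.636). Within groups these r were 0.88 and 0.839, and without the 2 farthest libraries they were 0.504 and 0.501, so the relations rested on those libraries. Dcn and Aldh1a2, at an r of 0.0131 (exact permutation p = 0.976, adjusted p = 0.987) and a rho of -0.40 (exact permutation p = 0.291, adjusted p = 0.699), showed no such relation.

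**Figure D4:**
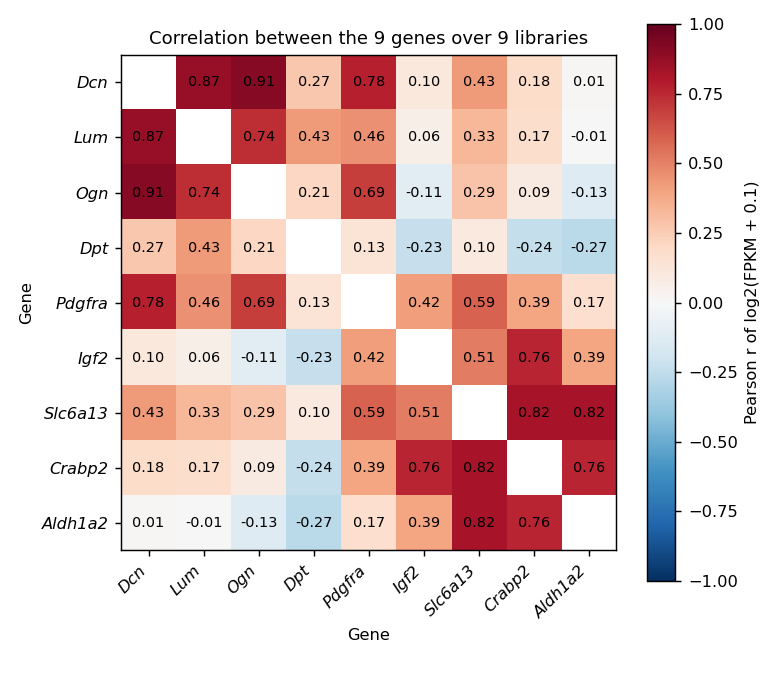
Pearson r of log2(FPKM + 0.1) over the 9 libraries for each of the 36 pairs of genes, as a coloured grid. The highest value is 0.91 for Dcn and Ogn, and Slc6a13, Crabp2 and Aldh1a2 form a block of 0.76 to 0.82.

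The genes most like each member over the 9 libraries were ranked by Pearson r among gene sums of at least 1 FPKM, as a description. The points are the 9 libraries, which share depth and tissue makeup within each point, and no test was run. Aldh1a2 was most like Ptgds (r = 0.9747), Slc22a8 (0.964) and Slc6a12 (0.959), a betaine and GABA transporter, and Slc6a13 was most like Slc13a4 (0.964), a sulfate transporter, then Xrn1 (0.951) and Fkbp7 (0.949). Crabp2 was most like Omd (0.983), a proteoglycan gene beside Ogn, then Dock5 (0.974) and Camkk2 (0.961). Dcn was most like Selenop (0.972), the plasma selenium carrier, and Tsga10 (0.968). Pdgfra was most like Zfp266 (0.970), Angel2 (0.969) and Gsn (0.961), and Lum most like Pms1 (0.961), Gpm6a (0.942) and Nedd1 (0.935).

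Igf2 was most like Gsdmd (0.975), Fbxl7 (0.974) and Cmtm3 (0.973), Ogn most like Gmfb (0.954), Prex2 (0.931) and Plk5 (0.921), and Dpt most like Tpmt (0.939), Uqcrq (0.856) and Palm2 (0.854). The mean of the 9 genes, each put on a common scale, was most like Cdc37l1 (0.975), Sema3d (0.968), Rpl7 (0.967), Rpl30 (0.966) and Ranbp2 (0.964). Plxdc2 (0.963), Ecm2 (0.956), Gigyf2 (0.953), Mospd2 (0.952) and Rnase4 (0.946) came next. Genes of the lists read below were Ptgds, Slc22a8 and Slc6a12 for Aldh1a2, Slc13a4 for Slc6a13 and Omd for Crabp2. For the mean there was Ecm2, the matrix gene upstream of Aspn on chromosome 13. The other genes named as nearest are in none of these lists, among them all those for Dcn, Lum and Ogn. How often list genes would rank this high was not computed.

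The mRNA table lists 33 transcripts of the 9 genes, of which 30 were above 0 in at least 1 library and 28 had a mean of at least 0.1 FPKM. At the transcript level a call also needed a change of 1 or more on the log2 scale. By this rule 0 of the 28 were called on CFA3D, where 2.19% of all transcripts were, 1 on CFA6D, where 2.57% were, and 0 between the CFA days, where 2.23% were. At an unadjusted p under 0.05 alone the counts were 0, 5 and 6 of the 28, where 4.68%, 6.81% and 5.42% of all transcripts were called. On CFA6D these were Dcn-203, Dcn-204, Dcn-205, Pdgfra-201 and the transcript of Lum. Between the CFA days they were Dcn-201, Dcn-203, Dcn-204, Dcn-205 and the transcripts of Lum and Ogn. Most were thus overlapping transcripts of Dcn, which are not separate results, so these counts cannot be read against the shares of all transcripts. Lum, Ogn, Dpt and Aldh1a2 each had 1 transcript, so the gene sum and the transcript were the same.

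Dcn was carried by 2 coding transcripts. Dcn-201 had 191, 182 and 138 FPKM in saline, 192, 259 and 169 on CFA3D, and 91.2, 156 and 119 on CFA6D, and Dcn-202, which starts downstream of it, had 106, 88.7 and 103 in saline, 88.6, 117 and 80.8 on CFA3D, and 78.2, 106 and 43.2 on CFA6D. Dcn-201 was lowest in CFA6D replicate 4, and Dcn-202 was lowest in CFA6D replicate 6. Against saline on CFA6D neither had an unadjusted p under 0.05. Their log2 fold changes were -0.50 (SE 0.23, limma adjusted p = 0.743) and -0.48 (SE 0.29, limma adjusted p = 0.808). Retained-intron transcripts made up 7.63% of the Dcn sum. Dcn-203, one of them, had a log2 fold change of -0.91 on CFA6D (SE 0.24, limma adjusted p = 0.501). How reads were shared out between transcripts that overlap is uncertain, since the 2 coding transcripts share most of their exons.

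Pdgfra-201, which starts close to the window printed above, was the called transcript. Pdgfra-208 and Pdgfra-207 also start close to it and were not called. Their log2 fold changes on CFA6D were 0.67 (SE 0.75) and 0.45 (SE 0.40), so the lower value was not shared by the transcripts from this region. The FPKM of Pdgfra-201 was 3.34, 2.51 and 2.59 in saline, 0.214, 2.85 and 2.38 on CFA3D, and 1.61, 0.199 and 0.193 on CFA6D. All CFA6D libraries were below all saline libraries, and CFA3D replicate 1 was as low as the lowest of them. On CFA6D it had a change of -2.44 on the log2 scale (SE 0.93, limma adjusted p = 0.680), while the Pdgfra sum was not called. Pdgfra-202, which starts farther downstream and carried 51.5% of the sum, had 6.96, 5.34 and 4.91 FPKM in saline, 7.29, 5.91 and 4.33 on CFA3D, and 3.65, 7.97 and 5.46 on CFA6D. It was high in CFA3D replicate 1 and CFA6D replicate 5, in which Pdgfra-201 was low.

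Igf2 came mostly from Igf2-205 (48.3% of the sum) and Igf2-201 (34.6%). The share of Igf2-205 ran from 27.6% in CFA6D replicate 4 to 76.0% in CFA3D replicate 2, so the leading transcript changed between pools of the same group. In Slc6a13, retained-intron transcripts made up 31.3% of the sum, the highest share of the 9 genes, against 4.37% in Crabp2 and 2.82% in Igf2. Such transcripts hold unspliced RNA, which libraries made after ribosomal RNA depletion keep.

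**Figure D5:**
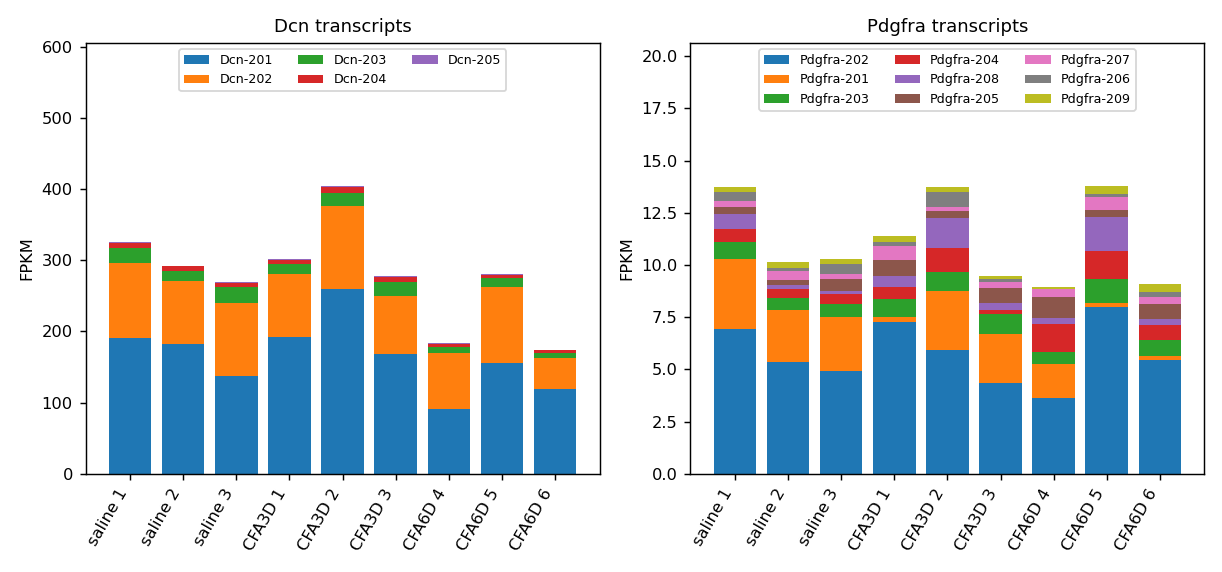
FPKM of the transcripts of Dcn (left) and Pdgfra (right) in each library, as stacked bars whose height is the gene sum, 1 colour per transcript. The segment of Pdgfra-201 is near 0.2 FPKM in CFA3D replicate 1 and CFA6D replicates 5 and 6, and above 1.6 FPKM in the other 6 libraries.

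The genes around these 9 were read from lists of the same pathways. Calls in these lists stand beside 4.45% of all gene sums called on CFA3D, 11.1% on CFA6D and 7.41% between the CFA days. None of the 11 other small leucine-rich proteoglycans tested was called in any comparison, and their medians were 0.22 on CFA3D, 0.02 on CFA6D and -0.02 between the CFA days. Bgn (biglycan, mean 32.5 FPKM) had log2 fold changes of 0.04 and 0.02 from saline on CFA3D and CFA6D, Prelp of 0.16 and -0.11, and Fmod (fibromodulin) of 0.55 and 0.79. On CFA6D, Dcn and Lum were thus called lower and no other proteoglycan of the list was, and the difference between them and the list was not tested.

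Of 23 fibroblast matrix genes, 0 were called on CFA3D (median 0.01), 1 was lower on CFA6D (median -0.06) and 0 were called between the CFA days. The gene called was Col3a1, a fibrillar collagen, at -0.53 (SE 0.22, limma adjusted p = 0.404). Its FPKM was 38.1, 37.7 and 22.9 in saline and 19.02, 21.7 and 26.1 on CFA6D, with overlap between saline replicate 3 and CFA6D replicate 6. Col1a1 and Col1a2, the chains of type I collagen, had log2 fold changes of 0.60 and 0.27 on CFA6D and were not called, and Fn1 (fibronectin) had 0.63. Col1a1 reached 158 FPKM in CFA6D replicate 6, the library with the highest osteoblast markers, against 24.9 to 55.9 FPKM in the other 8, and the part of bone cells in this was not tested.

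Of 10 adventitial and epineurial fibroblast genes, 0 were called on CFA3D, 1 was lower on CFA6D and 2 were lower on CFA6D than on CFA3D. Col15a1, a collagen of basement membranes, was lower against saline (-0.57, SE 0.17, limma adjusted p = 0.262) and against CFA3D (-0.55, SE 0.17, limma adjusted p = 0.614). Its FPKM was 22.2, 20.4 and 13.6 in saline and 13.2, 13.1 and 10.8 on CFA6D, all below saline. Ly6a, which encodes the surface protein Sca-1, was lower against CFA3D (-0.58, limma adjusted p = 0.571), and Cd34 was not called.

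Of 20 meningeal and arachnoid genes, 0 were called on CFA3D (median 0.15), 1 was higher on CFA6D (median -0.07) and 0 were called between the CFA days (median -0.17). The gene called was Cdh1 (E-cadherin), at 0.29 (SE 0.12, limma adjusted p = 0.400). Ptgds had 0.36 on CFA3D and 0.74 on CFA6D with a standard error of 0.84, and Cldn11, a claudin of arachnoid tight junctions that myelin also holds, had -0.15 and -0.68. Of 4 GABA, betaine and taurine transporters beside Slc6a13, 0 were called in any comparison. Slc6a12, the next gene on chromosome 6, had 3.17, 1.29 and 4.50 FPKM in saline, 2.48, 5.72 and 4.31 on CFA3D, and 1.96, 4.67 and 4.94 on CFA6D, with the same low libraries as Slc6a13.

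Of 21 retinoid genes tested, 0 were called on CFA3D (median 0.11), 3 were higher on CFA6D (median 0.02), and 1 was higher and 2 were lower on CFA6D than on CFA3D. Crabp1, the relative of Crabp2, was higher on CFA6D at 0.51 (SE 0.19, limma adjusted p = 0.361), with 1.56, 1.73 and 1.25 FPKM in saline and 2.17, 2.13 and 2.22 on CFA6D. Dhrs9, a retinol dehydrogenase, was higher at 1.84 (limma adjusted p = 0.333), but its FPKM was 0.197 and 0.200 in CFA6D replicates 4 and 5 and 1.80 in replicate 6. Cyp26c1, which breaks down retinoic acid, was higher at 0.75 (limma adjusted p = 0.428) at levels of 0.284 to 0.507 FPKM on CFA6D. Aldh1a3 (-0.65, limma adjusted p = 0.614) and Rarb (-0.60, limma adjusted p = 0.642), an enzyme and a receptor named after their values were seen, were lower on CFA6D than on CFA3D. Fabp5, Rarg and Rdh5, the 3 with the highest level, were not called.

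Of the 6 ligands and receptors of platelet-derived growth factor beside Pdgfra, 0 were called in any comparison, and Pdgfa, Pdgfrb and Pdgfb had log2 fold changes of -0.06, 0.20 and -0.17 on CFA6D. Of 13 genes of the insulin-like growth factor system beside Igf2, 0 were called against saline on either day. Between the CFA days, Igf1 (-0.45, limma adjusted p = 0.614) and Igfbp7 (-0.58, limma adjusted p = 0.670) were lower on CFA6D and the receptor Igf1r (0.31, limma adjusted p = 0.642) was higher. Igf1 and Igf1r were named after their values were seen. Igfbp6 and Igfbp5, the binding proteins with the highest level, had -0.41 and -0.56 on CFA6D and were not called. Of 12 TGF-beta system genes, 0 were called in any comparison, and Tgfbi, Ltbp3 and Tgfbr3 had -0.45, 0.21 and 0.21 on CFA6D.

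Of 8 genes of the perineurium, the sheath around nerve fascicles, 1 was higher and 1 was lower on CFA6D and 2 were lower on CFA6D than on CFA3D. Cldn1, a tight junction claudin, had 11.2, 8.46 and 10.3 FPKM in saline, 10.8, 12.96 and 9.41 on CFA3D, and 4.97, 7.77 and 4.78 on CFA6D, so that every CFA6D library was below all others. Its log2 fold change was -0.79 against saline (SE 0.20, limma adjusted p = 0.185) and -0.93 against CFA3D (SE 0.20, limma adjusted p = 0.464). Prss12 was higher against saline (0.34, limma adjusted p = 0.426), and Ntn4, named after its values were seen, was lower against CFA3D (-0.76, limma adjusted p = 0.620). Itgb4 and Slc2a1 had 0.13 and -0.02 on CFA6D. Of 5 endoneurial fibroblast genes, Plxdc1 was lower on CFA6D than in saline (-0.45, limma adjusted p = 0.389) and Osr2, named after its values were seen, lower than on CFA3D (-0.89, limma adjusted p = 0.614), while Abca9 and Sox9 were not called.

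Markers of other cells moved with CFA6D to differing degrees. Against saline on CFA6D, 11.1% of all gene sums were called, and 74.2% of those calls were higher. That last share was 50.2% under quantile and 56.8% under median-of-ratios scaling. Of 8 sensory neuron markers, 3 were higher on CFA6D than in saline, Rbfox3 (0.67, limma adjusted p = 0.106), Nefh (0.34, adjusted p = 0.430) and Uchl1 (0.32, adjusted p = 0.444), and the summed list was 1613 to 2080 FPKM in saline and 2047 to 2387 FPKM on CFA6D, with overlap. Of 6 macrophage markers 0 were called, with a median of -0.34. Their sum was 49.7 to 61.6 FPKM in saline and 29.7 to 49.5 FPKM on CFA6D, lower in every library but by a narrow margin. The groups did not overlap in 2 of the 6, against 16.2% of all gene sums. Cd68 went the other way, with means of 3.95 FPKM in saline and 4.87 FPKM on CFA6D. Of 7 genes that glucocorticoids and other stress signals turn on, 4 were higher on CFA6D: Ddit4 (1.66, limma adjusted p = 0.0732), Sgk1 (1.22, adjusted p = 0.156), Per1 (1.11, adjusted p = 0.202) and Tsc22d3 (0.73, adjusted p = 0.436). Their sum was 145 to 269 FPKM in saline and 341 to 429 FPKM on CFA6D, with no overlap. This list was chosen with earlier results of these data known, so its higher values on CFA6D describe it and are not a test. The part of neuron content or of these genes in the lower Dcn and Lum was not tested. Of the 5 adipocyte markers, Adipoq (-2.81, limma adjusted p = 0.997) and Cidec (-2.99, adjusted p = 0.997) were lower on CFA3D than in saline, whose replicate 2 held most of their RNA. Satellite glia, Schwann cell, endothelial, mural cell, bone, cartilage, skeletal muscle, pituitary, choroid plexus and erythroid markers gave 0 calls against saline on either day. Between the CFA days, where 7.41% of all gene sums were called, 6 genes of these marker and stress lists were called. They were 1 of 8 sensory neuron, 1 of 4 satellite glia, 1 of 5 osteoblast and 3 of 7 stress genes. Every other marker list gave 0 calls. Whether the 6 exceed the share of all gene sums was not tested. The satellite glia marker Fabp7 was lower on CFA6D (-0.45, limma adjusted p = 0.631), with 50.0 to 59.4 FPKM against 63.6 to 85.9 FPKM on CFA3D. Rbfox3 (0.49, limma adjusted p = 0.581), the osteoblast marker Ibsp (1.45, adjusted p = 0.665), Ddit4 (1.62, adjusted p = 0.166), Sgk1 (1.22, adjusted p = 0.510) and Per1 (1.18, adjusted p = 0.571) were higher. The summed satellite glia list overlapped, at 291 to 342 FPKM on CFA3D and 246 to 329 FPKM on CFA6D, and so did the neuron list, at 1973 to 2299 FPKM on CFA3D. Their part in the lower Dcn, Lum and Ogn was not tested.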

How the data were processed

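RNA was sequenced from 9 pools of trigeminal ganglion tissue. According to the study's methods, ribosomal RNA was depleted, libraries were stranded, reads were trimmed with Trimmomatic and mapped to GRCm38, and expression was computed in CLC Genomics Workbench. The submitters' processing notes also name Bowtie 0.12.2 and build mm8, with no role given. The authors deposited FPKM per transcript and library. The methods do not say how FPKM was made, and FPKM forces the values of a library to share a total, so a very abundant foreign RNA lowers the others.

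Of 102122 mRNA transcripts, 101539 were matched to GENCODE release M21, and FPKM was summed per gene. All per-sample columns were used, so 0 were left out. Depth was read from the step that 1 read pair makes in low values (0.0237 to 0.0333 FPKM in 1 kb). Gene sums of at least 0.1 FPKM on average were fitted as log2(FPKM + 0.1) in limma 3.58.1 (R 4.3.3), with the 3 groups, all 9 libraries, no covariate and empirical Bayes with a mean trend. Fold changes on this scale understate those of low genes. A call is an unadjusted p under 0.05, the cutoff of the study, and Benjamini-Hochberg adjusted p-values cover all gene sums. The fits were tested on simulated data. Correlations over libraries used exact permutation tests, two-sided, in Python 3.11.15.

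The 9 genes, the 26 lists and the tests were chosen with earlier results of these data known. Of each list, marker lists apart, the text names the 3 genes of highest mean and those called against saline. Every other list gene named, including those called only between the CFA days and the single markers, was chosen after its values were seen. The 10 genes most like the mean of the 9 genes, and the 3 most like each, were named by Pearson r, except for a gene that is not reported here. Alternatives were pseudocounts of 0.01 and 1, a mean of at least 1 FPKM, no filter, quantile and median-of-ratios scaling, only the compared libraries, the transcript of highest mean, the replicate number as a block, a log2 fold change of at least 1, approximate reads, and leaving out libraries.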

Additional observations from a re-analysis of the deposited data

Results flagged for a closer look

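These genes drew attention because their changes from saline on the CFA days differed from each other, by the direct limma comparison of CFA6D with CFA3D at an unadjusted p under 0.05. Of the 9 fibroblast genes these were Dcn (log2 fold change -0.64), Lum (-0.61) and Ogn (-0.42), and each was lower on CFA6D. Among the genes of the other lists, Col15a1 (-0.55), Ly6a (-0.58), Osr2 (-0.89), Cldn1 (-0.93), Ntn4 (-0.76), Igf1 (-0.45), Igfbp7 (-0.58), Aldh1a3 (-0.65), Rarb (-0.60) and Fabp7 (-0.45) were lower on CFA6D. Igf1r (0.31), Dhrs9 (1.80), Rbfox3 (0.49), Ibsp (1.45), Ddit4 (1.62), Sgk1 (1.22) and Per1 (1.18) were higher. None had a limma adjusted p under 0.05, and 7.41% of all gene sums met the same condition. The genes named were picked by it from all tested genes of the 26 lists, so their number is not a result about those lists. Dhrs9 was highest in CFA6D replicate 6, at 1.80 FPKM against 0.197 and 0.200 FPKM in the other CFA6D libraries. Those lay above the CFA3D libraries, at 0.042 to 0.093 FPKM, and a fit of Dhrs9 without replicate 6 is not given. Groups of 3 libraries were not searched for outlying samples.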

How the results depend on the processing

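Lum kept its direction and its call on CFA6D, against saline and against CFA3D, in every alternative but the one that also asked for a log2 fold change of at least 1, which left 0 of the 9 genes called against saline and 0 between the CFA days, with 55, 96 and 126 gene sums on CFA3D, CFA6D and between the CFA days. Dcn was lost against saline with the transcript of highest mean (-0.50, SE 0.23), which left 1 gene called. Over all alternatives but that stricter rule, Dcn lost its call on CFA6D against saline in 7. Between the CFA days Dcn lost its call in 1 and Ogn in 4. With only the compared libraries 1 gene, Crabp2, was called on CFA3D (0.74, SE 0.32). No paired design is stated: same-numbered saline and CFA3D libraries correlated at 0.0877, -0.078 and 0.0301 in their deviations, and the replicate block gave 0 genes and 498 gene sums called on CFA3D in place of 717, with 56.6% of them higher in place of 81.9%. Quantile and median-of-ratios scaling gave 58.1% and 49.1% higher on CFA3D, 50.2% and 56.8% on CFA6D (74.2% as reported) and 43.0% and 53.4% between the CFA days (41.4%).

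Leaving out each library in turn gave 0 to 1 genes called on CFA3D, 1 to 3 on CFA6D and 2 to 3 between the CFA days. On CFA6D, 1 to 4 genes had groups that did not overlap. Smaller groups fail to overlap more often, and the share over all gene sums is not given for these fits. The 1 to 4 thus cannot be set against the 16.2% of 3 pools against 3. In the same 3 comparisons, 490 to 1523, 1437 to 2003 and 815 to 1354 gene sums were called. The 1523 came without saline replicate 1. The log2 fold changes on CFA3D ran from -0.027 to 0.24 (Dcn), -0.12 to 0.16 (Pdgfra), -0.18 to 0.56 (Igf2), -0.046 to 0.43 (Slc6a13) and -0.40 to 0.99 (Aldh1a2). On CFA6D they ran from -0.32 to 0.022 (Pdgfra), -0.18 to 0.60 (Igf2), -0.26 to 0.39 (Slc6a13) and -0.39 to 1.00 (Aldh1a2), and between the CFA days from -0.28 to 0.19 (Dpt), -0.33 to 0.46 (Igf2), -0.45 to 0.18 (Slc6a13), -0.54 to 0.38 (Crabp2) and -0.43 to 0.64 (Aldh1a2).

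Signs turned on CFA3D for Pdgfra, to -0.043 under quantile scaling, -0.044 under median-of-ratios scaling and -0.074 with approximate reads. On CFA6D they turned for Slc6a13, to -2.9e-05 at a pseudocount of 0.01, -0.041 under quantile and -0.031 under median-of-ratios scaling, and for Igf2 to -0.10 with the transcript of highest mean, which also gave -0.42 between the CFA days. Leaving out 2 libraries at once was chosen after seeing the data. Without saline replicate 3 and CFA6D replicate 6, 1 gene (Dpt) was called on CFA3D. In that fit 3 genes did not overlap on CFA6D, with the limit given above for smaller groups. Pdgfra then had -0.050 on CFA3D, and Igf2 and Slc6a13 had -0.22 and -0.10 on CFA6D. Between the CFA days Igf2 and Aldh1a2 had -0.31 and -0.40. Without saline replicate 2 and CFA6D replicate 6, 1 gene (Lum) was called on CFA6D and 1 between the CFA days, where Dcn (-0.51, SE 0.23) and Ogn (-0.27, SE 0.14) were lost. Pdgfra, Igf2, Slc6a13 and Aldh1a2 then had -0.060, -0.042, -0.046 and -0.40 on CFA3D, Igf2, Slc6a13, Crabp2 and Aldh1a2 had -0.35, -0.40, -0.061 and -0.80 on CFA6D, and Igf2 and Aldh1a2 had -0.31 and -0.40 between the CFA days. The cause of these shifts was not tested. None of the 9 genes had a limma adjusted p under 0.05 in any alternative. Other gene sums did, 6, 7 and 3 of them on CFA3D, CFA6D and between the CFA days with the transcript of highest mean, 3 on CFA6D with approximate reads, 0 to 3 on CFA6D and 0 to 2 between the CFA days when 1 library was left out, 9 and 9 without saline replicate 3 and CFA6D replicate 6, and 1 between the CFA days without saline replicate 2 and CFA6D replicate 6. With 3 pools a group, the confidence intervals of the variable genes were wide, and the size of change that could be detected in them was not computed.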
